A study of Vitis vinifera with 2 samples.

Results

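The subject here is a set of predicted grapevine miRNAs that were each read from several precursors. The deposited table of predicted miRNAs holds 299 entries, and an entry gives 1 mature sequence, its reads and the precursors it was assigned to in each library. An entry was taken as a member when at least one library listed it with 2 or more precursors. This held for 50 entries, of which 2 were set apart in advance, so that 48 members were described beside 249 entries with 1 precursor wherever they were listed. The small RNA libraries were made from micropropagated plantlets of Vitis vinifera 'Muscat Hamburg' at 6 weeks of age, labelled as leaf and collected, according to the methods, as the shoot apex with a developed leaf. The NCT library came from plantlets at 26°C without cold (0 h) and the CT library from plantlets held at 4°C for 4 h. The 26°C is that of the methods, and the results of the study give a slightly lower temperature. Each library pooled 3 plantlets, and a condition had 1 library only. A difference between them therefore has no replicate check, and every test on reads below compares these 2 libraries and not the conditions. The table lists small RNAs only and holds no marker gene by which the tissue could be checked.

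Plant miRNAs are cut by DICER-LIKE1 from the stem of a hairpin-shaped precursor transcript, which leaves a duplex of a strand from the 5′ arm (5p) and a strand from the 3′ arm (3p), with a short overhang at each 3′ end. One strand is loaded into ARGONAUTE1, which favours a 5′ uridine, and guides it to mRNAs with a nearly complementary site. Many conserved plant miRNAs are encoded by several loci that give the same mature sequence, and sequence repeats in a genome, such as copies of a transposable element with inverted ends, can also fold into hairpins at many places. A read of such a sequence matches all of its places equally, so that the sequence alone does not tell which precursor it came from.

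The sequences on which the results turn are given first. They are written 5′ to 3′ with T for U as in the table, under the names of the table, which mostly differ from those of the article. Novel_mir_53 has the same name in both, but novel_mir_5 here is novel_mir_52 of the article, and not its novel_mir_5. Capitals mark bases 2 to 8, the seed. The first set holds the 8 members that reached 50 reads in NCT or CT.
novel_mir_117: tGGGGTACgaactagaggtgg
novel_mir_78: aCGGAGTGgaagaggggaggag
novel_mir_53: tGGAGAAGgggagcacgtgca
novel_mir_174: tGGAAGCAatcaggagacttg
novel_mir_45: tCTGAAGTttgaagagctgtg
novel_mir_148: tTAAACAAgagagaaccgagg
novel_mir_5: aTGGTAGTgattttaggaagtgt
novel_mir_139: aTTAATTGttcccaccgctct
The next set holds the 5 members with the most precursors and novel_mir_102, whose 4 precursors stood in a row in both libraries.
novel_mir_19: tGGCAAGGtgaattactcatgat
novel_mir_7: tTAGGAAGcgcttttaatatt
novel_mir_33: tTTCCTATgggaactcgtctct
novel_mir_17: tGAAGGGGcaactaatgtatc
novel_mir_90: cCGGGGAGaattgatggggaa
novel_mir_102: cAGGGGGAgagagagagagta
All but a pair of the 48 members had a seed of their own among the members, with 47 different seeds in the set. The exception was novel_mir_11 and novel_mir_49, both with the seed GAAGAGG.

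The members made up a small share of the reads but a large share of the precursors. In the NCT library, 41 members were listed with 129 precursors. They were 19.5% of the 210 entries listed there, held 42.2% of the 306 precursors and had 2.90% of the 92912 reads. In the CT library, 28 members were listed with 68 precursors, which were 14.6% of 192 entries, 28.3% of 240 precursors and 2.81% of 97572 reads. The number of precursors chose the members, so these shares describe the set and were not tested. The small share of reads also depends on what was set apart. Novel_mir_178, with 8 precursors and 9743 reads in its higher library, has more reads than all members together. It counts in the totals but not among the members. Most members had few precursors in either library. In the NCT library, 24 members had 2, 6 had 3, 8 had 4 or more and 3 had 1, while in the CT library the numbers were 18, 4, 4 and 2.

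Novel_mir_19, of 23 nt, had the most precursors, with 14 in the NCT library and none in the CT library. It was followed by novel_mir_7 with 11 in NCT and 4 in CT, novel_mir_33 with 10 in NCT, novel_mir_17 with 7 in NCT, and novel_mir_90 with 6 in both libraries. Novel_mir_33 and novel_mir_17 were not listed in CT. At least 4 precursors were also listed for novel_mir_102 (4 in both libraries), novel_mir_2 and novel_mir_108 (4 in NCT), and novel_mir_234 (4 in CT). In the CT library the most precursors were thus those of novel_mir_90, and only novel_mir_90 and novel_mir_102 of these 9 had the same number in both libraries. According to the methods, the prediction capped the copies of a miRNA on the genome, so sequences with more copies could not appear here.

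**Figure D1:**
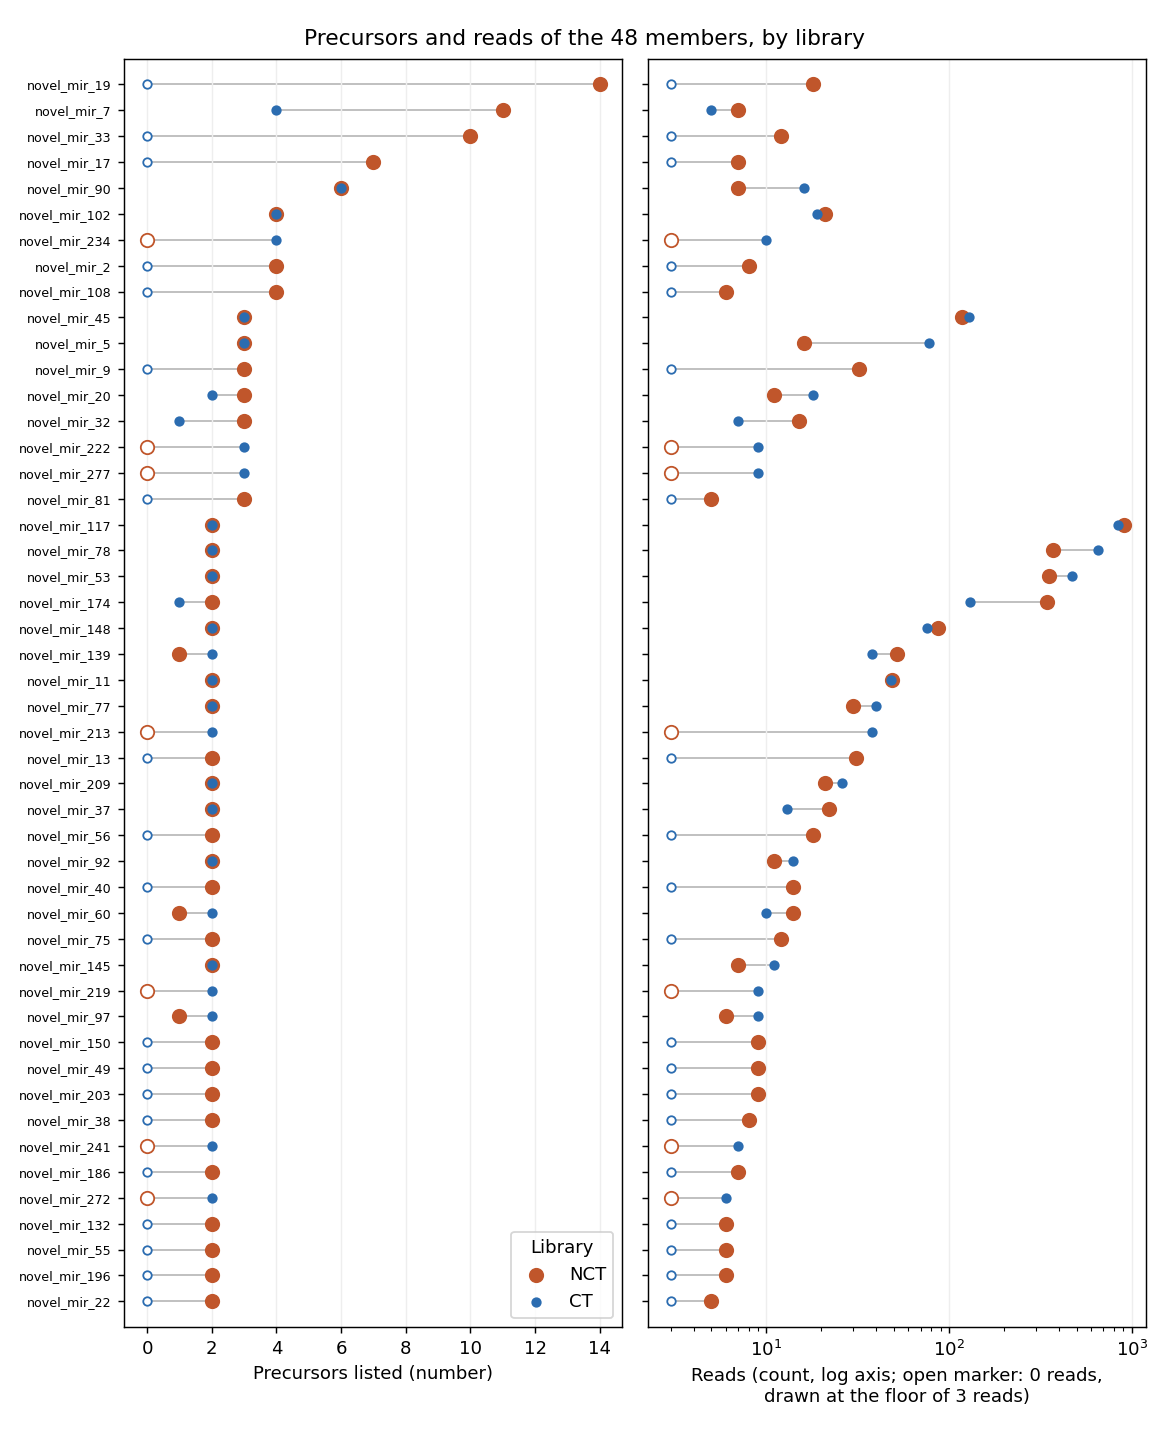
Number of precursors (left) and reads (right, log axis) of each of the 48 members in the NCT library (large orange markers) and the CT library (small blue markers), ordered by the larger number of precursors. Open markers stand for members not listed in a library. Novel_mir_19 leads with 14 precursors and 18 reads, while novel_mir_117, with 2 precursors, has the most reads (903 and 847).

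The members with the most precursors had few reads. The 9 members with 4 or more precursors in a library had between 6 and 21 reads in their higher library, with a median of 10, and none reached 50 reads. The 8 members whose larger number was 3 had a median of 16.5 reads and a highest count of 128, and the 31 members whose larger number was 2 had a median of 14 and a highest count of 903. The latter stand just inside the limit of the rule, and the 249 entries just outside it, with 1 precursor, had a median of 13 reads and a highest count of 25311. Of all 48 members, 32 had 20 reads or fewer and 21 had 10 or fewer in their higher library. The pattern holds for the members and not for the whole table, since an entry that was set apart, novel_mir_178, was listed with 8 precursors and 9743 reads. No count from 1 to 4 stood in the table, so a 0 stands for an unlisted entry, whose reads in that library are not known. Levels are given as TPM, the reads scaled to the clean reads of the library (21355400 in NCT and 25915815 in CT), and a single read was worth 0.0468 TPM in NCT and 0.0386 TPM in CT.

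**Figure D2:**
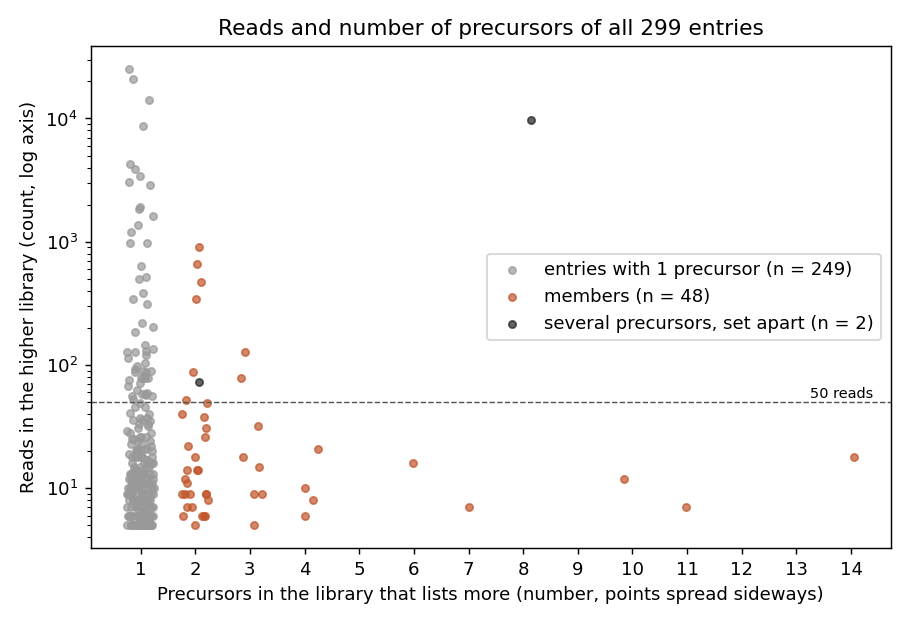
Reads in the library with the higher count (log axis) against the number of precursors in the library that lists more, for 249 entries with 1 precursor (grey), 48 members (orange) and 2 entries set apart (black). The 9 members with 4 or more precursors lie between 6 and 21 reads, under the dashed line at 50 reads.

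The count of an entry in the table was the largest count over its precursors, not their sum. At 39 of the 48 members every precursor of a library listed the same reads. For example, all 14 precursors of novel_mir_19 listed 18 reads and all 6 precursors of novel_mir_90 listed 7 reads in NCT and 16 in CT. Summed over precursors, the reads of the members would be 5857 instead of 2693 in NCT and 5706 instead of 2746 in CT. The other 9 members listed different reads at different precursors. The widest gap was at novel_mir_174, with 343 and 196 reads at its 2 precursors in NCT. Novel_mir_75 listed 6 to 12 reads, and novel_mir_33 listed 12 reads at 7 of its precursors and 10 at the other 3. For the remaining 6 members the difference was 1 or 2 reads, as at novel_mir_5 with 78, 77 and 77 reads in CT.

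The members were read from both arms in similar shares as the other entries. Of the 129 precursors in NCT, 75 gave the 5p arm and 54 the 3p arm (58.1% 5p, against 58.1% for entries with 1 precursor). In CT, 42 gave the 5p and 26 the 3p arm (61.8%, against 56.8%). These shares count precursors, and those of 1 member hold the same sequence and are not independent. In NCT, novel_mir_19 alone gave 14 of the 75 on the 5p arm, and novel_mir_33 gave 9 of the 54 on the 3p arm. For 22 members every precursor gave the 5p arm and for 16 every precursor gave the 3p arm. In the other 10 the same mature sequence stood on the 5′ arm of one predicted hairpin and on the 3′ arm of another. Novel_mir_78 was one of these, with a 3p and a 5p precursor in both libraries, each with the full 370 reads in NCT and 654 reads in CT. Novel_mir_33 had 9 precursors on the 3p arm and 1 on the 5p arm, and novel_mir_7 had 8 on the 5p and 3 on the 3p arm in NCT and 3 and 1 in CT. Novel_mir_45, novel_mir_20, novel_mir_213, novel_mir_56, novel_mir_2, novel_mir_132 and novel_mir_81 were the others.

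To follow precursors between the libraries, their numbers were used. Numbers are given anew in each library, but they ran in genome order: 49 precursors of NCT and 44 of CT whose places are given with the study followed the chromosomes, the strand and the start without an exception. The 80 entries with 1 precursor in each library also stood in the same order in both. They cut the order into intervals, and precursors of a member in the same interval of both libraries can be the same place, while those in different intervals cannot. This way of matching was chosen after the data were seen. For the 21 members listed in both libraries, 45 of 50 CT precursors fell into an interval that also held an unmatched NCT precursor of the same member. All 6 precursors of novel_mir_90 matched, in 6 different intervals, as did the 4 of novel_mir_102, which had consecutive numbers in both libraries, and the 3 of novel_mir_5, which lay apart and included places on chromosomes 10 and 14. The 4 CT precursors of novel_mir_7 matched 4 of its 11 in NCT, and the other 7 had no partner.

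The number of precursors was the same in both libraries for 14 of these 21 members, larger in NCT for 4 (novel_mir_7, novel_mir_20, novel_mir_32 and novel_mir_174) and larger in CT for 3 (novel_mir_139, novel_mir_60 and novel_mir_97). Among the 14, novel_mir_45 was the only one whose precursors did not all match. It had 3 in each library, but a 5p precursor of NCT had no partner in CT and a 3p precursor of CT had none in NCT. Novel_mir_20 had 3 precursors in NCT and 2 in CT, and only 1 fell into a shared interval.

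**Figure D3:**
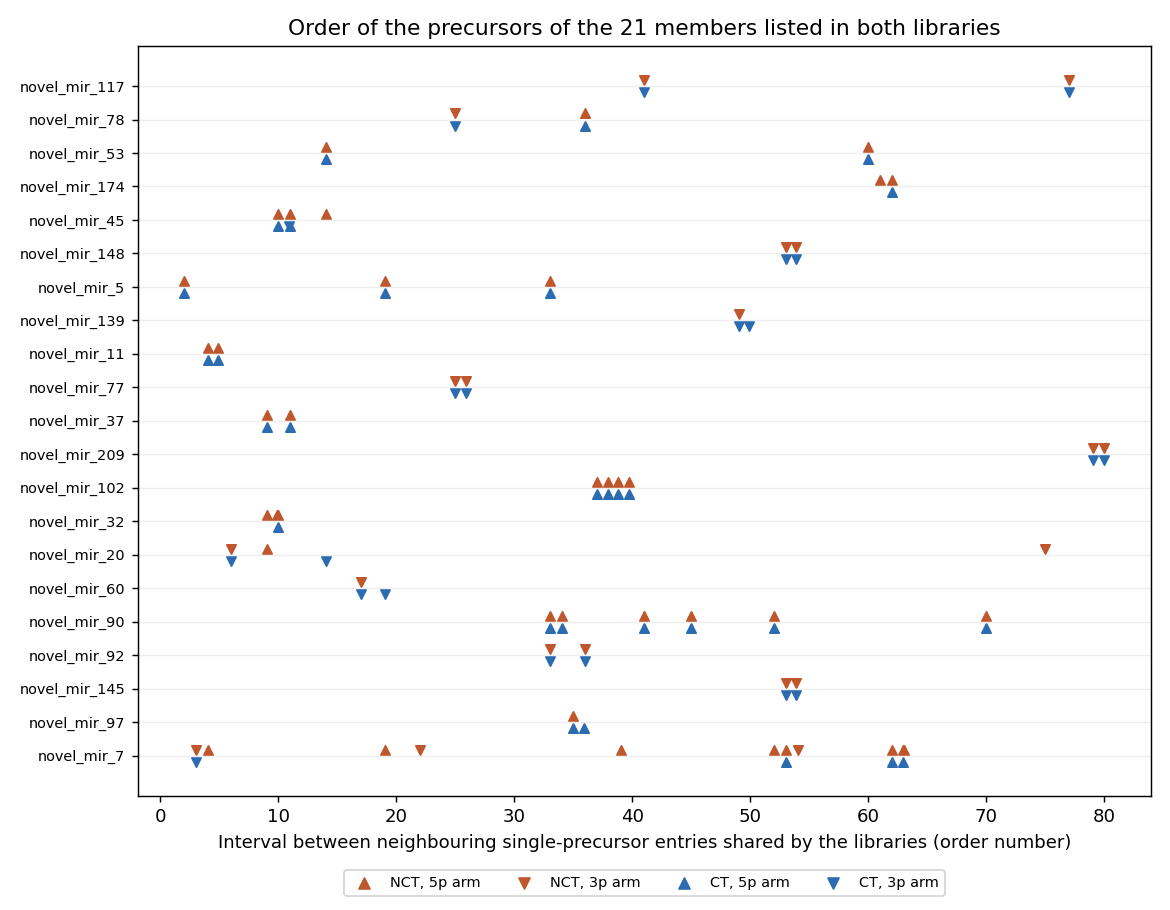
Order of the precursors of the 21 members listed in both libraries, NCT above (orange) and CT below (blue), along the intervals between neighbouring shared entries with 1 precursor. Upward triangles stand for the 5p and downward ones for the 3p arm, and precursors within an interval are drawn side by side. Novel_mir_90 shows 6 pairs, whereas 7 NCT precursors of novel_mir_7 have no CT counterpart.

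The precursors of a member had consecutive numbers in some cases and not in others. Of the 38 members with 2 or more precursors in NCT, 15 had consecutive numbers throughout, 5 in part and 18 not at all. The corresponding numbers for the 26 members in CT were 8, 2 and 16. The numbers follow the strand before the start, so consecutive numbers mean only that no other precursor was numbered between them. Precursors of the opposite strand can still lie between them. Neighbours in number can also stand on different strands or chromosomes. Novel_mir_102 had consecutive numbers throughout in both libraries, while those of novel_mir_209 lay 2 apart in both and those of novel_mir_53 lay 171 apart in NCT and 123 in CT. Novel_mir_19 and novel_mir_7 had consecutive numbers in part, and their precursors had places on at least 3 chromosomes each (1, 14 and 18 for novel_mir_19, and 5, 11 and 14 for novel_mir_7). Only 44 of the 129 NCT precursors stood between neighbours of 1 chromosome and could be placed in this way. How many copies of each sequence the genome holds was not analysed here.

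The 8 members with 50 or more reads were those with a hairpin given by the study, on the 12X build of the PN40024 genome. The place given fits the first-listed NCT precursor of each. The hairpins were 84 to 290 nt long. Folded anew at 37°C, they had a minimum free energy between -17.6 kcal/mol (novel_mir_45) and -101.7 kcal/mol (novel_mir_174). These energies are not those of the study, which differ. Per nt the lowest was -0.487 kcal/mol, for novel_mir_53. More than 1 hairpin loop was found in novel_mir_117 and novel_mir_148 (2 each), novel_mir_174 (3) and novel_mir_78 (4). In novel_mir_148, 2 bases of the mature sequence paired within it. According to the annotation, 6 lay between genes. On the sense strand these were novel_mir_117 (chromosome 1, 7530676 to 7530798), novel_mir_53 (chromosome 14, 1414567 to 1414684), novel_mir_148 (chromosome 5, 15963202 to 15963301) and novel_mir_139 (chromosome 4, 6524866 to 6524949). On the antisense strand these were novel_mir_45 (chromosome 13, 9287822 to 9287908) and novel_mir_5 (chromosome 10, 2014034 to 2014156). The other 2 were on the sense strand. The hairpin of novel_mir_78 (chromosome 16, 19451213 to 19451502) overlapped coding sequence and an intron, and its other precursor stood on chromosome 18 by its number. The hairpin of novel_mir_174 (chromosome 7, 17201643 to 17201884) overlapped a 5′ UTR and coding sequence.

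None of the 48 members was within 2 mismatches of a known grapevine miRNA over at least 18 nt, against 7 of all 299 entries. The study had taken sequences with up to 2 mismatches as known miRNAs before the prediction, so a low number was set beforehand. With 3 mismatches 1 member was found, novel_mir_53, and its hairpin turned out to lie opposite a known one. miR164 is a conserved plant miRNA family that targets mRNAs of NAC transcription factors. Numbered from the 5′ end of vvi-miR164a, whose sequence is also that of vvi-miR164c and vvi-miR164d, novel_mir_53 differed by C9G, A10G and G12A. The sequences below show how they relate, with capitals for the 21 nt of novel_mir_53 in its own hairpin and for their reverse complement in the known hairpin vvi-MIR164d.
novel_mir_53 hairpin: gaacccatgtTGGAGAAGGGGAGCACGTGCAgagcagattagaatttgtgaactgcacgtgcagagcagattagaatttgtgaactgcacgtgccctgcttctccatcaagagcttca
vvi-MIR164d hairpin: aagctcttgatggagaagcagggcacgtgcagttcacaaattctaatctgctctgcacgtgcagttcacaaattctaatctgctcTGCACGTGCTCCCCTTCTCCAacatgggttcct
Read on the opposite strand, the hairpin of novel_mir_53 matched vvi-MIR164d over 116 of its 118 nt without a mismatch. It also held the reverse complement of the mature vvi-miR164d itself, at positions 86 to 106. The reverse complement of novel_mir_53 stood whole in vvi-MIR164d and in vvi-MIR164a, but not in vvi-MIR164b or vvi-MIR164c, and novel_mir_53 had 2 precursors in each library. Within the hairpin a stretch of 40 nt stood in 2 overlapping copies 32 nt apart. Novel_mir_53 had 355 reads in NCT (16.6 TPM) and 471 in CT (18.2 TPM), and all precursors listed the same reads. The log2 (CT/NCT) was 0.13 (counting standard error 0.10), which did not differ beyond counting error (Fisher's exact test, p = 0.21). Among the 103 known hairpins compared, no other member shared a run of 16 nt or more on either strand.

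Several members had a partner in the table that was related by sequence and listed in only one library. Novel_mir_174 had its 343 reads in NCT at a precursor in the interval where CT listed no precursor of it, but one of novel_mir_276 with 342 reads. The mature sequences are set below one another, with the seeds in capitals.
novel_mir_174: tGGAAGCAatcaggagacttg
novel_mir_276: aAGCAATCaggagacttgtag
They share 18 nt, shifted by 3 nt along the same hairpin, from 17201653 to 17201673 for novel_mir_174 and from 17201656 to 17201676 for novel_mir_276. The 130 CT reads of novel_mir_174 were listed at its other precursor, where NCT listed 196. The hairpin of novel_mir_276 holds novel_mir_174 whole and, at positions 208 to 228, also its reverse complement. The other precursor could thus be the opposite strand of the same locus, which was not tested.

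Novel_mir_33, listed in NCT with 10 precursors and 12 reads, was over most of its length the reverse complement of an entry in CT. This was novel_mir_285, with 1 precursor and 11 reads there. Capitals mark the 18 nt over which they are reverse complements of each other.
novel_mir_33: tttcCTATGGGAACTCGTCTCT
novel_mir_285: tgaAGAGACGAGTTCCCATAG
The CT precursor of novel_mir_285 gave a 5p arm in the same interval as a precursor of novel_mir_33 that gave a 3p arm in NCT. Beside the 18 paired bases, 4 bases of novel_mir_33 and 3 bases of novel_mir_285 were left at the 5′ ends. None was left at the 3′ ends. The same interval does not prove the same place, and whether both came from 1 hairpin was not tested.

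Novel_mir_11 and novel_mir_13 belonged to a row of precursors on the sense strand of chromosome 11. The row ran from the hairpin of novel_mir_10 to that of novel_mir_14, from 16101897 to 16468138, and the 5 mature sequences below, which begin alike, came from it. The seeds are again in capitals.
novel_mir_10: tGAAGAGGtggagagtggagtg
novel_mir_11: tGAAGAGGttgagagtggaatg
novel_mir_12: tGAAGAGGtggagagggtggat
novel_mir_13: tGAAGAGAtagaggggtcgaat
novel_mir_14: tGAATAGGaagagggaggaaca
Novel_mir_10 and novel_mir_11 differed at 2 bases, G10T and G20A counted from the 5′ end of novel_mir_10. In NCT the row held 8 consecutive precursors: 1 of novel_mir_10, 2 of novel_mir_11, 1 of novel_mir_12, 1 of novel_mir_7, 2 of novel_mir_13 and 1 of novel_mir_14. In CT it held 4, those of novel_mir_10, novel_mir_11 and novel_mir_14. Novel_mir_11 had 49 reads in NCT and 48 in CT, and its neighbour novel_mir_10 had 259 and 313. Novel_mir_13 had 31 reads in NCT (1.45 TPM) and was not listed in CT, at least 12.5-fold lower if it had 3 reads or fewer there. Novel_mir_14 went the other way in these counts, with 13 reads in NCT and 81 in CT.

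Counted by entries and not by reads, the members stood close to the entries with 1 precursor in length and first base. A length of 21 nt was found in 35 of 48 members (72.9%, 95% Wilson interval 59.0 to 83.4%), against 73.9% of the others. A length of 23 nt was found in 8 members (16.7%, 8.70 to 29.6%), against 10.8% of the others, and 5 were 22 nt long. The 8 of 23 nt were novel_mir_5, novel_mir_19, novel_mir_38, novel_mir_81, novel_mir_213, novel_mir_234, novel_mir_241 and novel_mir_277. None was 20 nt long, which allows a share of up to 6.25% by the limit of 3 counts (7.41% by the Wilson interval), against 3.61% of the others. The intervals cover the counting of entries only, and each share of the others lay within the interval of the members.

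Uridine was the first base of 27 members (56.3%, 42.3 to 69.3%), against 61.8% of the others. Adenine stood first in 13 (27.1%, 16.6 to 41.0%) against 16.1%, and cytosine in 8 (16.7%) against 16.9%. Adenine was the one base for which the share of the others lay just outside the interval of the members. No member began with guanine, against 5.22% of the others, under both limits given above for 0 of 48. Of the 9 members with 4 or more precursors, 7 began with uridine, and the other 2, novel_mir_90 and novel_mir_102, with cytosine. The GC content of the members had a median of 42.9%, against 47.6% for the entries with 1 precursor, and ranged from 23.8% in novel_mir_219 to 63.6% in novel_mir_78.

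**Figure D4:**
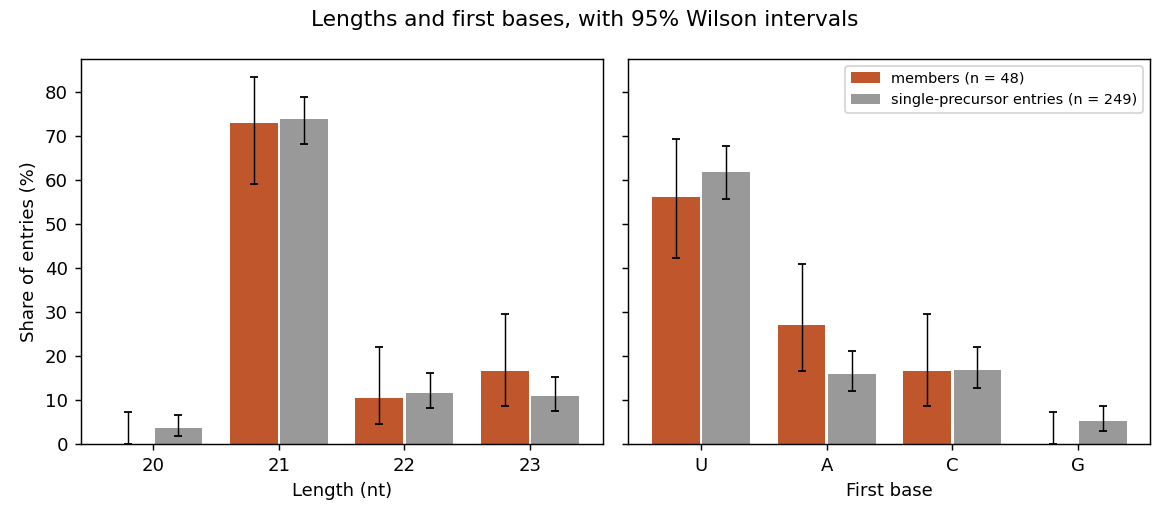
Shares of the 48 members (orange) and the 249 entries with 1 precursor (grey) by length and by first base, with 95% Wilson intervals. The members had 72.9% of 21 nt and 56.3% with a first U, and the bars of the others, at 73.9% and 61.8%, lie within these intervals.

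The comparison of CT with NCT asked which predicted miRNAs differed after 4 h at 4°C. A call needed a log2 ratio over 1 in size, a Fisher's exact p at or under 0.001 and more than 10 TPM in a library, the limits of the study. Of 28 entries over 10 TPM, 4 were members: novel_mir_117, novel_mir_78, novel_mir_53 and novel_mir_174. None of these was called higher in CT (17.9% of the entries tested) and 1 was called lower, novel_mir_174 (25% of the entries tested). Over all entries these were 5 higher and 7 lower calls, and with median-of-ratios factors 7 and 4, with no change for the members. By the counts of the table, novel_mir_174 fell from 16.1 to 5.02 TPM. Its log2 ratio was -1.68, with a standard error of 0.15 from counting (exact p = 3.4e-33). At the precursor matched between the libraries, with 196 and 130 reads listed, the log2 ratio was -0.87 (standard error 0.16, exact p = 7.5e-08), under the limit in size. At the other precursor CT did not list novel_mir_174. There the 342 CT reads of novel_mir_276, a different sequence, set against the 343 NCT reads of novel_mir_174 gave a log2 ratio of -0.28 (standard error 0.11, exact p = 0.011). Reads of 1 sequence cannot be assigned to 1 of its precursors. These ratios therefore describe the listed counts and not separate places.

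The member with the most reads, novel_mir_117, had 42.3 TPM in NCT (95% Wilson interval 39.6 to 45.1) and 32.7 TPM in CT (30.6 to 35.0). Its log2 ratio was -0.37 (standard error 0.07, exact p = 8.2e-08), beyond counting error but under the limit in size. Novel_mir_78 had 17.3 TPM (15.6 to 19.2) in NCT and 25.2 TPM (23.4 to 27.2) in CT, a log2 ratio of 0.54 (standard error 0.09, exact p = 4.8e-09), also under the limit. Novel_mir_45, with 118 reads in NCT and 128 in CT, and novel_mir_148, with 87 and 76, had log2 ratios of -0.16 and -0.47, and novel_mir_139, with 52 and 38 reads, had -0.73. With exact p-values of 0.405, 0.0405 and 0.0194, none of these last 3 reached the limits.

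Without the limit on TPM, 10.7% of the 299 entries were called higher and 23.1% lower in CT. Of the 48 members, 2 were called higher, novel_mir_5 and novel_mir_213, and 11 lower. Novel_mir_5 had 16 reads in NCT and 78 in CT (0.749 and 3.01 TPM), a log2 ratio of 2.01 (standard error 0.40, exact p = 1.6e-08), and its 3 precursors matched between the libraries. Novel_mir_213 had 38 reads in CT and was not listed in NCT, at least 10.4-fold higher if it had 3 reads or fewer there. The 11 called lower were novel_mir_174 and 10 members not listed in CT. The largest of the latter were novel_mir_9 (32 reads in NCT, at least 12.9-fold lower), novel_mir_13 (31 reads), novel_mir_19 and novel_mir_56 (18 reads each, at least 7.28-fold lower) and novel_mir_40 (14 reads, at least 5.66-fold lower). Novel_mir_33, novel_mir_75, novel_mir_49, novel_mir_150 and novel_mir_203 had 9 to 12 reads, with bounds of 3.64 to 4.85. Each of these folds was set against 3 reads in CT and is a bound only if the member had 3 reads or fewer there, which the table does not show. The calls of these 10 members and of novel_mir_213 took the unlisted library as 0 reads. They therefore rest on the count in the other library alone, and every member listed only in NCT with 9 or more reads was called.

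Members listed in only 1 library were 20 in NCT (41.7%) and 7 in CT (14.6%), against 35.8% and 29.8% of all entries, and 21 members (43.8%) were listed in both, against 34.4%. The 7 in CT were novel_mir_213 and, with 6 to 10 reads, novel_mir_219, novel_mir_222, novel_mir_234, novel_mir_241, novel_mir_272 and novel_mir_277. The log2 (CT/NCT) of the 21 members in both libraries ranged from -1.68 to 2.01 with a median of -0.16, and 10 lay above 0 and 11 below. The median over all 103 entries in both libraries was -0.41, and that over the 80 with 1 precursor was -0.47, with 13 above 0 and 67 below. The 95% interval of the member median, from -0.73 to 0.31, covered both of these medians. For the 80 entries with 1 precursor the interval ran from -0.61 to -0.28. The difference between the medians was not tested. Most of the 21 members had few reads, with a standard error of 0.29 or more for 15 of them. Scaled by the median of ratios, which moves every log2 value up by 0.41, the median of the members was 0.25, that of all entries 0 by construction, and novel_mir_117, novel_mir_45 and novel_mir_11 lay above 0 instead of below. The 14 members with the same number of precursors in both libraries had a median of 0.05 by clean reads.

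**Figure D5:**
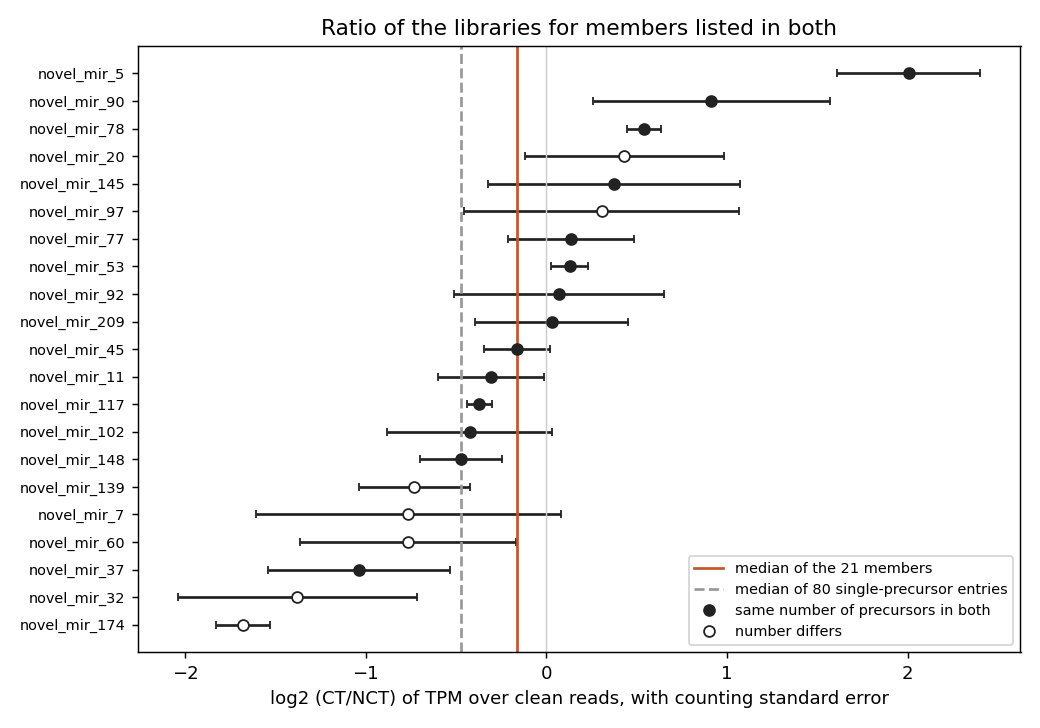
Log2 (CT/NCT) of the 21 members listed in both libraries, with the counting standard error, by clean reads. Filled points have the same number of precursors in both libraries. Novel_mir_5 lies highest at 2.01 and novel_mir_174 lowest at -1.68. The orange line is the median of the members (-0.16, 95% interval -0.73 to 0.31). This interval covers the median of the 80 entries with 1 precursor (-0.47, dashed line).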

How the data were processed

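The authors trimmed the reads and placed those of small RNA length on the PN40024 genome (12X) with SOAP2, at every place that matched perfectly. After removal of reads from known miRNAs and other RNA classes, they ran Mireap to predict hairpins. STAR is also named in the submitters' processing notes, with no role given. The deposited table gives raw read counts per mature sequence and, as text, the number, arm and reads of each precursor in each library. Library totals (clean reads), hairpins, places and known miRNAs were read from the study's supplementary tables and joined by the whole sequence.

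Each of the 299 entries was tested for a difference between NCT and CT by Fisher's exact test (two-sided) over clean reads, with a count of 0 set to 0.01 TPM for log2 ratios and to a floor of 3 reads for bounds. The test itself took an unlisted entry as 0 reads, although its true count is not known. With 1 library per condition, p-values measure read counting only. Intervals of shares and levels, and bounds, cover counting error only, since PCR copies are not independent molecules. The intervals of the median log2 ratios come from the spread between entries. Hairpins were folded with ViennaRNA 2.7.2, and Python 3.11.15, numpy 2.4.6, scipy 1.17.1, matplotlib 3.10.9 and R 4.3.3 with edgeR 4.0.16 (TMM factors only) were used. Shared runs between entries were counted from 16 nt.

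The members and lists were chosen with earlier results of these data known. Members were named by a rule: 50 or more reads, called, most precursors or the largest difference in their number, different reads or both arms over precursors, and sequence near another entry. The other members named serve to complete a count of lengths, listings or neighbours, and their names were added after their values were seen. Alternatives were other library totals, limits, counts over precursors and choices of members. Copies in the genome were not analysed here.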

Additional observations from a re-analysis of the deposited data

How the results depend on the processing

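No paired analysis was possible because NCT and CT had 1 library each, and no replicate could be left out. Over all entries, 5 were called higher and 7 lower in CT. Lower calls numbered 4 with median-of-ratios factors and 4 with TMM factors. Without the TPM limit there were 32 higher and 69 lower calls, with 2 and 11 among the members. Of the 32 and 69 calls, 28 and 60 were entries listed in 1 library only, whose unlisted count was taken as 0. At 50 reads or more there were 11 and 18 calls, with 1 member higher (novel_mir_5). With the smallest count over precursors 0 members were called lower, as novel_mir_174 had a log2 ratio of -0.87, and with the sum 2 were, novel_mir_174 and novel_mir_19. The sum counts the same reads at each of 14 precursors of novel_mir_19. The settings of mapped reads, over 5 TPM, adjusted p and a log2 limit of 1.5 kept every one of these counts within 1.5 times. Using the largest count over precursors repeats the main calls, since it is the count of the table. A floor of 3 reads could not change a member call, since no member over 10 TPM was listed in 1 library only.

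The numbers of precursors depend on which members are counted, by construction. Members with 2 or more precursors in both libraries were 16, with 50 precursors in NCT and 42 in CT. Those with 2 or more in NCT had 44 in CT, and the 26 with 2 or more in CT had 53 in NCT. The 21 listed in both had 58 in NCT, and the 17 with 3 or more had 78 and 33. Weighted by NCT reads, sequences with a first uridine took 77.4% of the members, against 42.8% of the entries with 1 precursor. Weighted by CT reads these shares were 65.4% and 46.0%. Single entries weigh heavily here, as novel_mir_117 had 903 of the 2693 member reads in NCT. Weighted by CT reads, the 5p arm took 47.0% of the precursors there. With 3 mismatches allowed, 1 member was near a known miRNA. The median log2 ratio of members in both libraries was between -0.27 and 0.25 in the planned settings and 0.05 without those whose number of precursors differed, an alternative chosen after the data were seen. Counts of 5 to 20 reads, which 32 members had at most, limit what can be said of single members.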

Other observations

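Novel_mir_5, novel_mir_7 and novel_mir_2 share a run of 8 nt that no other of the 299 entries holds on either strand, shown in capitals. The 3 were set together after their values were seen.
novel_mir_5: atggtagtgattTTAGGAAGtgt
novel_mir_2: tttggtagcgattTTAGGAAG
novel_mir_7: TTAGGAAGcgcttttaatatt
Over 20 nt, novel_mir_5 and novel_mir_2 differed at 2 bases, A1T and T8C counted from the 5′ end of novel_mir_5. Novel_mir_5 had 3 precursors in each library, with 16 reads in NCT and 78 in CT. Novel_mir_2 had 4 precursors and 8 reads in NCT and was not listed in CT, at least 3.24-fold lower if it had 3 reads or fewer there. Fisher's exact test, with 0 reads taken for CT, gave p = 0.0017, which missed the limit of 0.001. Novel_mir_7 had 11 precursors and 7 reads in NCT and 4 precursors and 5 reads in CT.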
